A study of Mus musculus with 6 samples.

Results

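MAFF and the classical immediate early genes were followed in the liver of *Txndc5*-deficient (KO) and wild-type (WT) mice. The set holds 10 genes of the 16123 in the deposited expression table, taken by symbol: *Maff*, *Fos*, *Fosb*, *Jun*, *Junb*, *Egr1*, *Ier2*, *Atf3*, *Klf6* and *Dusp1*. All 10 were found in the table. The set was chosen by the ratio of KO over WT of *Maff*, its leading gene, to which the other genes were added by kind, so every value of that ratio below is a description and carries no test.

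The libraries came from liver RNA of 2-month-old male mice fed a purified diet for 4 weeks and fasted for 16 h. WT animals are labelled C57BL/6Rj, and KO animals carry the allele C57BL/6JRj-Txndc5<em2Mdnp>/Ciba, a CRISPR/Cas9 deletion of exon 3 in a line derived from 1 founder male. Each genotype was sequenced as 3 pools, each made from the RNA of 3 mice, at 44040160 to 46050030 clean reads per library. For each gene the table gives 1 normalized read value per genotype, and the targeted gene *Txndc5* stood at 2697 in WT against 90.8 in KO.

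Immediate early genes are transcribed within minutes of a stimulus, without new protein synthesis, and their messages are short-lived. Many of them encode transcription factors. FOS and JUN proteins pair through leucine zippers to form the AP-1 factor, ATF3 belongs to the same zipper class, and EGR1 and KLF6 bind DNA through zinc fingers. MAFF is a small MAF protein. It has a zipper and a DNA-binding region but no activation domain, and acts as a partner of factors such as NRF2. In liver these genes respond to cytokines, injury, feeding and fasting signals.

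The promoters of 8 of the 10 genes were matched in the RefSeq promoter table of the mouse build GRCm38.p6, which covers 250 bases before and 50 bases after each listed start. *Egr1* and *Ier2* had no entry. *Maff* lies on the plus strand of chromosome 15 from 79346621 to 79359076 in GENCODE M21, a protein-coding gene with 4 annotated transcripts, and the promoter table lists 3 starts for it. The stretches below end at or before the listed start and are shown because they hold the matches to known motifs. Capitals mark the cAMP response element (CRE, TGACGTCA) in *Maff* and *Dusp1*, the EGR motif (GCGNGGGCG) in *Maff* and *Fosb*, and the TATA motif (TATAAA) in *Fos*.
Maff, second listed start, plus strand, chr15:79347400-79347519: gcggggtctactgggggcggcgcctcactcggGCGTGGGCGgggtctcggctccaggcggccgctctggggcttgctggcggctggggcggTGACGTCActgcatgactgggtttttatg
Dusp1, minus strand, chr17:26508563-26508662: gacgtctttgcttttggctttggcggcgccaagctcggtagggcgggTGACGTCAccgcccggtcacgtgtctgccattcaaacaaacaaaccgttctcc
Fos, plus strand, chr12:85473810-85473889: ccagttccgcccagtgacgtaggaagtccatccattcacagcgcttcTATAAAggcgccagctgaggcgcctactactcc
Fosb, minus strand, chr7:19310046-19310125: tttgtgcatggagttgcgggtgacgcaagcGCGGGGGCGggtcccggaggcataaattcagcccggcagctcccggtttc

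The second listed start of *Maff* carried both a CRE at −29 to −22 and an EGR motif at −88 to −80, counted from the start. *Dusp1*, which encodes a phosphatase that inactivates MAP kinases, had a CRE at −143 to −136. The EGR motif of *Fosb* lay at −50 to −42, and the TATA motif of *Fos* at −33 to −28. Both strands were searched and no matches overlapped. A CRE was present in 1.79% of all 32851 promoter windows, an EGR motif in 5.55% and a TATA motif in 13.6%. The other TATA match was in *Junb*, at bases 1 to 6 counted from the listed RefSeq start. GENCODE M21 places the most upstream start of *Junb* at 84978718 on the minus strand, and the match lies before that start. The CArG box bound by the serum response factor (1.63% of all windows), the AP-1 motif TGANTCA (7.81%) and the MAF core TGCTGA (19.5%) matched in 0 of the 10 windows of these genes, which says only that these letters are not in this stretch.

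**Figure D1:**
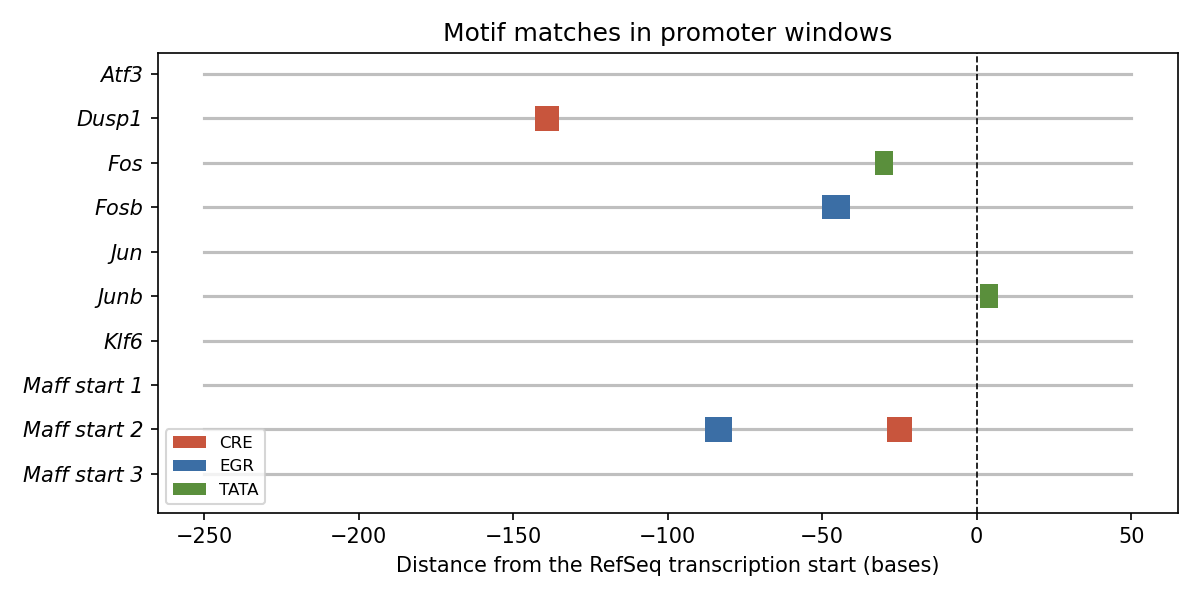
Motif matches in the 10 RefSeq promoter windows of 8 genes, with the distance from the listed transcription start in bases on the x axis and a row for each window. Coloured bars mark CRE, EGR and TATA matches, and the second start of Maff is the row with both a CRE and an EGR match.

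The genes spanned a wide range of levels. Compared per kb of listed gene length, the deposited WT value was highest for *Junb* (553 per kb), followed by *Ier2* (404 per kb), *Jun* (206 per kb) and *Dusp1* (154 per kb). *Egr1* (53.9 per kb) and *Maff* (26.1 per kb) came next. *Klf6* (7.93 per kb), *Atf3* (7.80 per kb), *Fos* (4.5 per kb) and *Fosb* (0.765 per kb) were lowest. In KO the order was the same except for *Klf6* (7.19 per kb) and *Atf3* (7.47 per kb), which changed places. The libraries of both genes overlapped widely between genotypes, as given below. *Maff* moved from 26.1 to 55.6 per kb and reached nearly the KO value of *Egr1* (58.6 per kb). *Fos* and *Fosb* were far below their partners *Jun* and *Junb* in both genotypes.

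**Figure D2:**
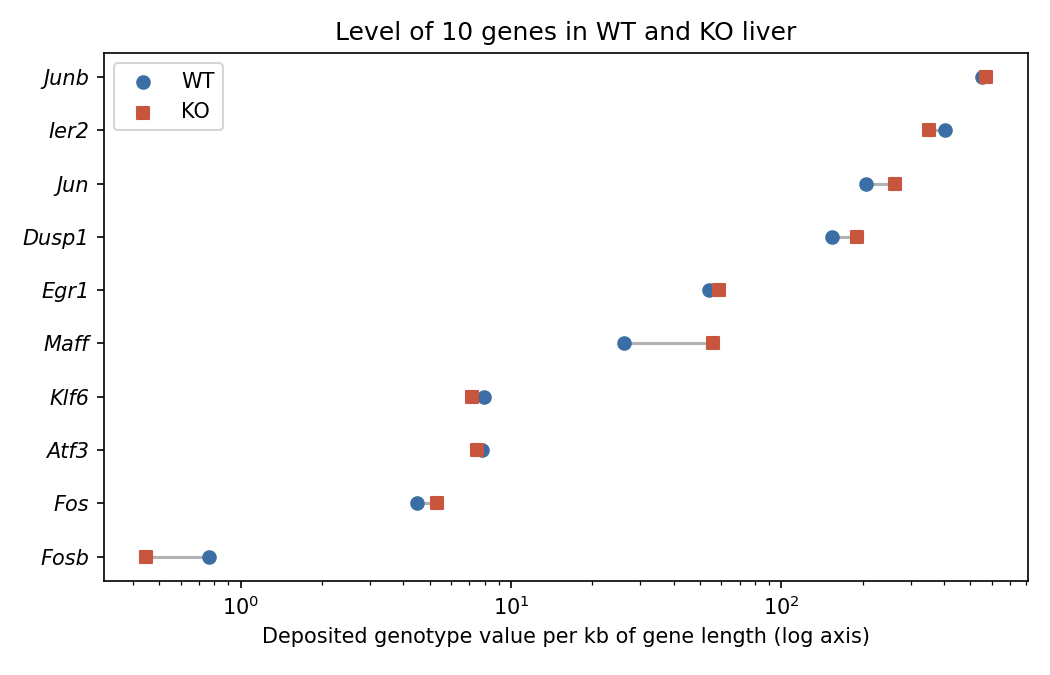
Deposited genotype value per kb of gene length for the 10 genes, on a log axis, with circles for WT and squares for KO. Maff, chosen for its ratio, has the widest gap among the genes above 1 per kb, from 26.1 in WT to 55.6 in KO.

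*Maff* was higher in KO. Its deposited value was 107 in KO against 50.2 in WT, which is 2.13-fold and 1.09 on the log2 scale. In bulk liver, fewer or more cells of a type and less or more RNA per cell cannot be told apart. The log2 ratios here are computed from both deposited values, whose ratio the authors' DESeq2 procedure had already drawn toward 0, so they understate the difference of weakly expressed genes. Genes whose mean over both genotypes reached 10 are called expressed here, and of these 11367 genes 12 had a higher ratio than *Maff*. A log2 ratio over 1 was found in 0.158% of the expressed genes and under −1 in 0.739%. Because *Maff* was chosen for this ratio, its place in that order is no evidence in itself.

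Reads per library could be recovered for 5 of the genes, *Maff*, *Klf6*, *Atf3*, *Fos* and *Fosb*, because reads are whole numbers and the deposited mean fixes their weighted sum. Each library is identified by its genotype and its size factor, the scaling for depth, since the recovered libraries carry no pool number. The size factors were 1.31, 1.04 and 0.886 in KO and 1.22, 0.879 and 0.818 in WT. *Jun*, *Junb*, *Ier2*, *Egr1* and *Dusp1* had too many reads for this step, so no spread between pools is known for them.

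*Maff* had 219, 87 and 73 reads in the 3 KO libraries, taken here and below in the order of size factors just given. It had 54, 39 and 41 reads in the WT libraries, taken in the same way. After division by the size factor these became 167, 84.0 and 82.4 normalized reads in KO and 44.1, 44.4 and 50.1 in WT. The lowest KO library was above the highest WT library, and the KO library with the size factor of 1.31 stood well above the other 2. KO averaged 111 ± 48.3 normalized reads (SD, n = 3 libraries), and WT averaged 46.2 ± 3.42 (SD, n = 3 libraries). As a background, 3307 resolved genes whose normalized reads summed to 60 to 400 were taken. In these genes all 3 KO libraries lay above all 3 WT libraries in 3.08% and below them in 2.63%. *Maff* has a sum of 472 and is not among those genes.

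The WT libraries were close to each other for *Maff*. On the log2(normalized reads + 1) scale their SD was 0.10, and 2.33% of the 3307 genes had a smaller SD in WT. In KO the SD was 0.57, which 60.7% of the genes fell below. The sum of *Maff* lies above the range of these genes, so the comparison is not matched for level. It also does not separate counting error from the spread between pools, so the small SD in WT is a description only. The mean difference between genotypes on this scale was 1.17. Leaving out the KO library with the size factor of 1.31 lowered it to 0.84, and leaving out the largest library of both genotypes, a step chosen after the data were seen, gave 0.81, so that the KO mean was then 1.76 times the WT mean. The difference was between 0.84 and 1.34 when each library was left out in turn.

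Where several sets of whole numbers fitted a gene past 0.5 on the log2 ratio, sets against the deposited direction were dropped. For *Maff* only sets with KO above WT were therefore compared, so the direction of its recovered reads was not found independently of the deposited ratio. One further set of 6 whole numbers with KO above WT came near the deposited mean of *Maff*. It lay 1.44 times the rounding of the deposited values away, where the set reported here lay 0.437 times that rounding away and none of 8063 resolved genes lay more than 1.07 times away. That set would place 0 reads in 1 WT library and 141 in another, and it was not used.

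The zipper gene *Fosb* was the other gene past 0.5 on the log2 scale, with deposited values of 2.89 in WT and 1.69 in KO (log2 ratio −0.78). It rested on 12 reads in all. The KO libraries held 0, 0 and 1 reads in the order of size factors given above, and the WT libraries 1, 5 and 5. The WT library with the size factor of 1.22 was at the level of the KO libraries, so the genotypes overlapped. Scaled for the size factors, the ratio of KO to WT reads was 0.0821 with an exact 95% counting interval of 0.00191 to 0.565, which covers counting error only and not the spread between pools. Of the genes whose mean reached 1, 8.32% had a log2 ratio under −0.5.

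*Fos*, the partner of JUN in AP-1, had deposited values of 9.47 in WT and 11.2 in KO (log2 ratio 0.25). Its normalized reads were 3.81, 25.1 and 6.77 in KO and 8.98, 11.4 and 6.11 in WT. The KO library with the size factor of 1.04 held 26 of the 37 KO reads, and the other 5 libraries were between 3.81 and 11.4. Without that library the log2 difference went from 0.05 to −0.65. The SD of *Fos* among the KO libraries, 1.26 on the log2 scale, exceeded that of 96.2% of the 3307 genes. Among the WT libraries its SD was 0.40, which exceeded that of 27.6% of these genes. The normalized reads of *Fos* summed to 62.2, close to the lower limit for these genes. The comparison is therefore not matched for level and does not separate counting error from the spread between pools.

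**Figure D3:**
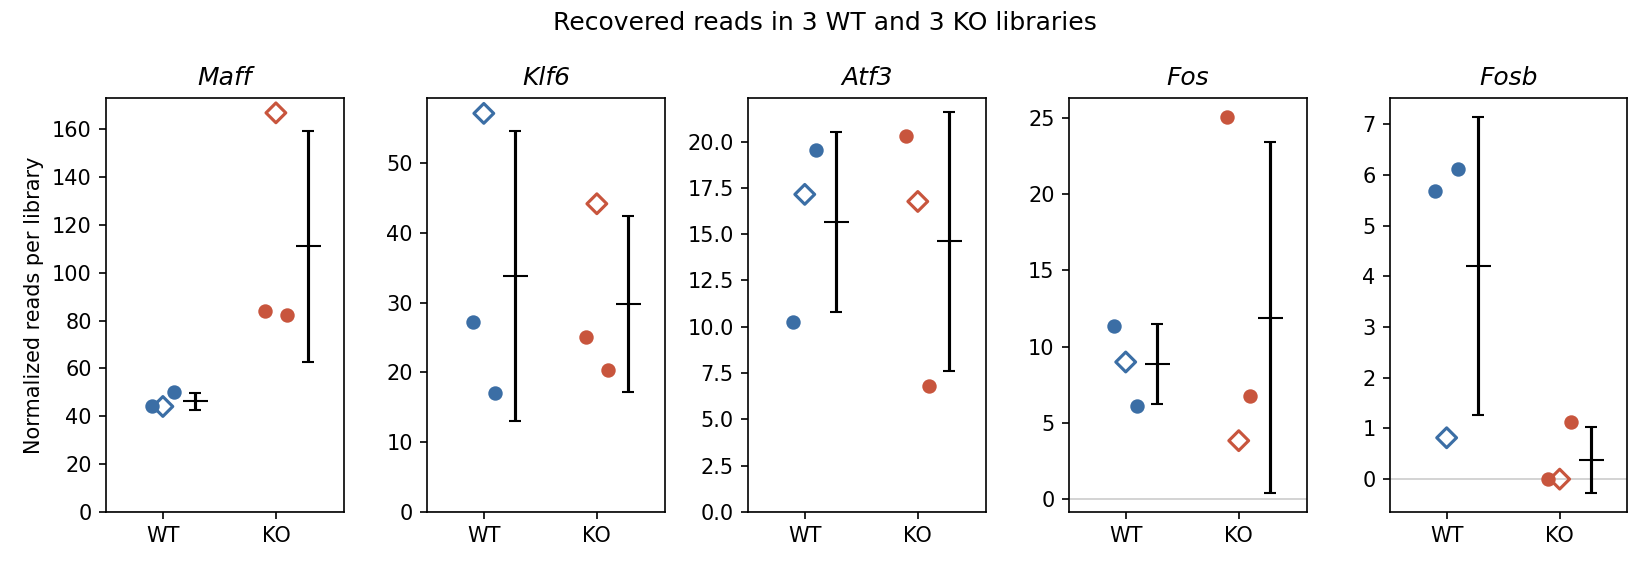
Normalized reads of 5 genes in each of 3 WT and 3 KO libraries, with black bars for the mean and SD of 3 libraries and an open diamond for the library of each genotype whose size factor is largest. The 3 Maff values in KO (82.4 to 167) sit above those in WT (44.1 to 50.1), and the genotypes overlap in Klf6, Atf3, Fos and Fosb.

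*Atf3*, a zipper factor induced by many stresses, had deposited values of 15.5 in WT and 14.8 in KO. Its normalized reads were 16.8, 20.3 and 6.77 in KO and 17.1, 10.2 and 19.6 in WT. Both genotypes covered the same range. The means were 14.6 ± 7.0 (SD, n = 3 libraries) and 15.6 ± 4.84 (SD, n = 3 libraries), and the difference changed sign when single libraries were left out, from −0.46 to 0.27 on the log2 scale.

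*Klf6*, a zinc finger factor of early growth and injury responses, had deposited values of 33.4 in WT and 30.3 in KO. The normalized reads were 44.2, 25.1 and 20.3 in KO and 57.2, 27.3 and 17.1 in WT. In both genotypes the library whose size factor is largest was the highest, at 1.95 times the mean of the other 2 KO libraries and 2.57 times that of the other 2 WT libraries. The same order was common: both largest libraries lay above the other 4 in 31.8% of the 3307 genes. Between genotypes the *Klf6* libraries overlapped. No common pattern of the 5 genes with recovered reads was seen over the 6 libraries. *Fos* and *Fosb* had so few reads that counting error could hide one. Pearson's r between *Maff* and *Klf6*, *Atf3*, *Fos* and *Fosb* on the log2 scale was 0.14, 0.04, −0.32 and −0.72, over 6 libraries that share depth and genotype. Among the pairs without *Maff*, r ran from −0.50 (*Klf6* and *Fosb*) to 0.26 (*Klf6* and *Atf3*).

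The more abundant genes had small ratios. *Jun* had deposited values of 657 in WT and 835 in KO (log2 ratio 0.35), and its relative *Junb* 1018 and 1045 (log2 ratio 0.04). *Dusp1* went from 301 in WT to 370 in KO (log2 ratio 0.30). *Egr1*, a zinc finger factor downstream of ERK signalling, had values of 166 and 180 (log2 ratio 0.12). *Ier2*, a nuclear protein encoded by a serum-induced gene, had 622 in WT and 540 in KO (log2 ratio −0.20). Of the 10 genes 9 were expressed by the rule above, *Fosb* being the exception. *Maff* alone of the 9 was past 0.5, where 2.48% of the 11367 expressed genes were past 0.5 and 7.90% under −0.5. The median ratio of the 9 genes was 0.12, beside −0.05 over the 11367 genes.

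The closest patterns to *Maff* over the 6 libraries, by Pearson's r on log2(normalized reads + 1) among the 3307 genes, were those of *9030619P08Rik* (r = 0.97), *Hip1* (0.94), *Fam174b* (0.93), *Adrb1* (0.93) and *Tiam2* (0.93). *Adrb1* encodes the beta-1 adrenergic receptor, *Hip1* an adaptor of clathrin-coated vesicles and *Tiam2* an activator of the GTPase RAC. The normalized reads of *9030619P08Rik* were 54.1, 40.5 and 45.2 in KO and 29.4, 30.7 and 30.6 in WT, in the order of size factors used for *Maff*. In all, 9 genes had an r of at least 0.9. Of the other members only *Klf6*, *Atf3* and *Fos* were among the 3307 genes, and none of these 3 reached that r. With 6 libraries and so many genes such values are only a description.

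Related genes were taken from 5 lists with 104 genes, of which 90 were expressed by the same rule. Among the 90, 6 were past 0.5 on the log2 ratio and 6 under −0.5, and 0 were past 1 in either direction. Over the 11367 expressed genes 2.48% were past 0.5 and 7.90% under −0.5, with 0.158% past 1 and 0.739% under −1. The median ratio of the 90 genes was 0.08. In the 21 of these genes that entered limma on recovered reads, 0 had an adjusted p under 0.05 and 1 had an unadjusted p under 0.05. Over all 3307 genes the corresponding shares were 0.0302% and 1.91%.

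Of the 22 relatives of AP-1 and MAFF, 19 were expressed. The highest ratio was that of *Mafg*, with values of 327 in WT and 440 in KO (log2 ratio 0.43). *Atf5*, a zipper factor of stress responses, had the lowest, with 22750 in WT and 15837 in KO (log2 ratio −0.52). The third small MAF gene, *Mafk*, chosen here after its values were seen, had 167 in WT and 172 in KO (log2 ratio 0.04). *Nfe2l2*, which encodes the MAFF partner NRF2 and was chosen in the same way, had 436 and 435 (log2 ratio −0.00324). The median of the list was 0.02. Its log2 ratios of −0.52 to 0.43 all lay below the ratio of *Maff*, which was chosen for that ratio.

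The other immediate early genes were more spread. Of 35, 30 were expressed, 5 were past 0.5 and 1 was under −0.5, beside 2.48% and 7.90% of all expressed genes. *Sik1*, which encodes a kinase induced by cAMP, was highest, with 310 in WT and 600 in KO (log2 ratio 0.95). *Gadd45g*, a growth arrest gene, was lowest, with 300 in WT and 193 in KO (log2 ratio −0.63). The remaining 4 past 0.5 were *Zfp36l2* (log2 ratio 0.91), *Klf10* (0.80), *Zfp36l1* (0.58) and *Gadd45a* (0.57), named after their values were seen. *Zfp36l1* and *Zfp36l2* encode proteins that speed the decay of short-lived messages. Reads per library were recovered for *Gadd45a* alone of these genes, with 10.7, 28 and 13.5 normalized reads in KO and 10.6, 14.8 and 2.45 in WT, which overlap. *Ier3*, also named after its values were seen, had a mean of 9.60, just below the limit, and a log2 ratio of 0.90. Its normalized reads were 6.86, 21.2 and 15.8 in KO and 5.72, 7.96 and 0 in WT, which overlap. With a mean of at least 1, 6 of 32 genes were past 0.5 and 1 was under −0.5, beside 3.23% and 8.32% of all such genes.

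The MAP kinase phosphatases other than *Dusp1* had 7 of 9 genes expressed, 1 of them past 0.5 and 1 under −0.5. Over all expressed genes these shares were 2.48% and 7.90%. *Dusp4* had 29.7, 21.2 and 30.5 normalized reads in KO and 13.9, 13.6 and 13.5 in WT. Its lowest KO library was above every WT library, which was so in 3.08% of the 3307 genes. For this gene limma gave a difference of 0.92 on the log2 scale with a standard error of 0.38 (adjusted p = 0.999 over 3307 genes). *Dusp8* had 14.5, 15.4 and 23.7 in KO and 14.7, 12.5 and 68.5 in WT. Its lower mean in KO rested on the WT library with the size factor of 0.818, without which the means were 17.9 in KO and 13.6 in WT.

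Among 21 kinases and factors upstream of immediate early genes, 0 were past 0.5 and 2 were under −0.5, *Rps6ka3* (log2 ratio −0.67) and *Creb1* (−0.62). Over all expressed genes these shares were 2.48% and 7.90%. *Rps6ka3* encodes an ERK-activated kinase, and *Creb1* the factor that binds the CRE. *Rps6ka3* had 30.5, 16.4 and 21.5 normalized reads in KO and 84.1, 22.7 and 20.8 in WT. *Creb1* had 45.7, 9.65 and 31.6 in KO and 131, 21.6 and 14.7 in WT. In both genes the WT library with the size factor of 1.22 set the higher WT mean, and the other libraries overlapped. Without it the means of *Rps6ka3* were 22.8 in KO and 21.8 in WT, and those of *Creb1* 29.0 and 18.1. The highest ratio of the list was 0.46, in *Map2k6*, a kinase of p38.

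The targets of NRF2 with small MAF proteins, among them enzymes of glutathione and quinone metabolism, had 13 of 16 genes expressed. The median log2 ratio was 0.06. *Gsta2*, a glutathione transferase, was lowest, with 74.9 in WT and 45.1 in KO (log2 ratio −0.73). Highest was *Gclc*, with 1057 and 1390 (0.40), which encodes the catalytic subunit of glutamate-cysteine ligase, an enzyme of glutathione synthesis. The normalized reads of *Gsta2* were 34.3, 54.1 and 38.4 in KO and 44.1, 106 and 83.2 in WT, which overlap.

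**Figure D4:**
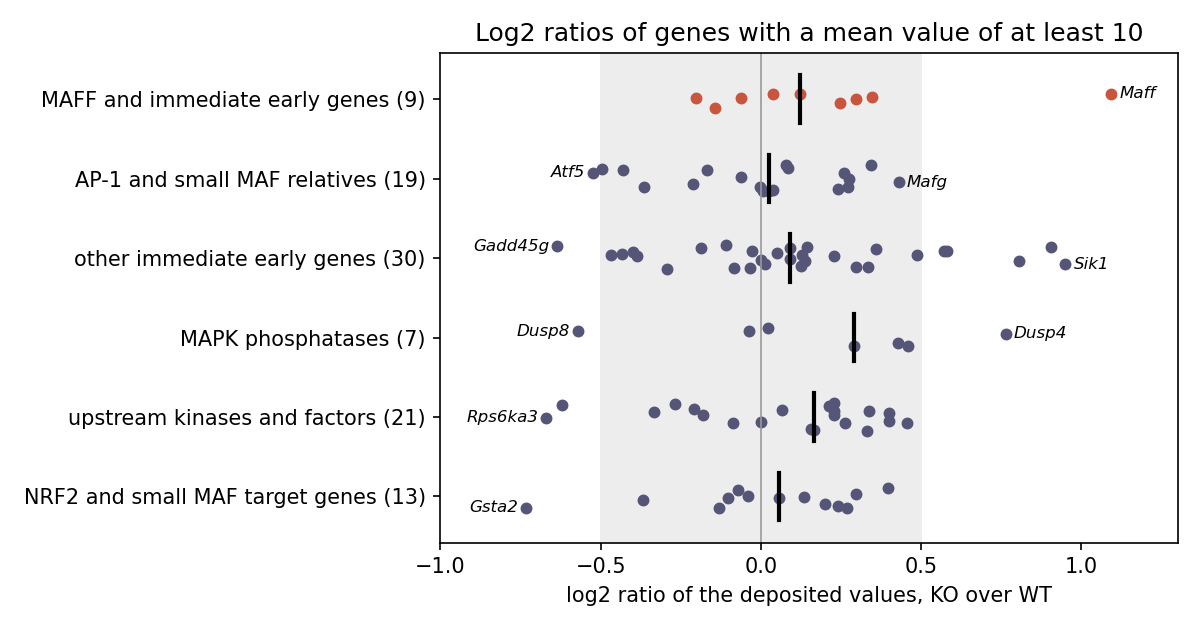
Log2 ratio of KO over WT of each expressed gene (mean value of 10 or more), by list, with the number of genes in brackets, a black bar for the median of the list and a grey band from −0.5 to 0.5. Maff at 1.09 lies to the right of every gene of the 5 related lists, whose highest is Sik1 at 0.95. Maff was chosen for this ratio, so its place is no evidence in itself.

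Markers of the cells that whole liver can hold were set beside these ratios. The summed value of 6 hepatocyte markers had a log2 ratio of −0.12, with all 6 measured, and 4 lists of other cells had sums between −0.21 and 0.21: Kupffer cells (7 genes), sinusoidal endothelium (6), stellate cells (6) and cholangiocytes (5). Single markers varied more, with 2 of 7 Kupffer cell genes (*Marco* at 0.62 and *Adgre1* at 0.50) and 1 of 5 cholangiocyte genes (*Epcam* at 0.51) past 0.5 on the log2 ratio and 1 of 6 stellate cell genes (*Dcn* at −0.50) under −0.5. The 6 neutrophil markers summed to 22.8 in WT and 24.1 in KO, and the 6 lymphocyte markers to 62.4 and 46.9. Red cell markers were higher in KO, with a log2 ratio of the sum of 0.60 and 4 of 6 genes past 0.5. Beside these marker counts, 2.48% of all expressed genes were past 0.5 and 7.90% under −0.5. Of the 6 red cell markers only *Slc4a1* had reads recovered per library. Its normalized reads were 28.2, 108 and 287 in KO and 21.2, 35.3 and 47.7 in WT, in the same order of libraries, which overlap. The part of these cells in the ratios of the other genes was not tested.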

How the data were processed

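Per the labels, liver poly(A) RNA was sequenced from 3 WT and 3 KO pools. The submitters' processing notes name HISAT2, StringTie, Cufflinks, GATK, Bowtie2, RSEM and the build mm10 without roles. The authors deposited read counts of clean reads per library and percent values for mapping and ribosomal RNA. The gene table holds a deposited signal for each genotype, on the scale of reads over DESeq2 size factors. Columns of the authors' own comparison (log2 ratio, p-values) were not used.

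Log2 ratios were computed from both deposited values. Whole reads per library were recovered by enumerating all sets of 6 whole numbers that give the deposited mean, for sums of normalized reads up to 400, and up to 600 for genes named here. Where several sets fitted a gene past 0.5 on the log2 ratio, only sets in the deposited direction were kept. Of 8081 genes, 8063 were resolved. The genotype of each recovered library came from the column that was higher in genes with a single read. The reads of *Maff* required the rule that a set lie within 1.1 times the rounding, chosen after the data were seen. On simulated data 605 of 606 genes up to 400 were resolved, all 605 correctly, as were 64 of 125 above, all 64 correctly.

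The recovered reads of 3307 genes with sums of 60 to 400 were compared with limma 3.58.1 in R 4.3.3 on log2(normalized reads + 1), with Benjamini-Hochberg adjustment. On simulated reads of the 3307 genes, limma called 198 of 200 genes changed by 2 on the log2 scale and 17 unchanged genes. The simulated spread was a fixed setting not taken from these libraries, and the pattern of the largest libraries was left out. No expressed related gene was past 1, so the simulation does not show how often limma would find changes of their size in the real libraries. The labels do not say whether pools shared mice or were handled separately, so p-values measure the spread between these libraries. The 10 genes, the 5 related lists and the 8 marker lists were chosen with earlier results of these data known. All 10 genes are named, and from each related list those past 1 or else the highest and lowest ratio, with the 5 genes most like *Maff*. All 104 related genes were matched, 4 by an older symbol.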

Additional observations from a re-analysis of the deposited data

How the results depend on the processing

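The log2 ratio of *Maff* was 1.08 with a pseudocount of 1, 1.09 with 0.1 and 1.14 when centred on the median of the 11367 genes, which is −0.05. Centring changed the split of genes past 0.5 from 282 higher and 898 lower to 390 and 755. With a limit of 1 in place of 0.5, the count of the 10 genes past it went from 2 to 1 by construction. The log2 difference of *Fosb* from recovered reads was −1.78 with a pseudocount of 1 and −3.80 with 0.1. The median log2 difference of the 5 genes with recovered reads was −0.08, and ranged from −0.46 to 0.23 when each library was left out. In limma, which held *Klf6*, *Atf3* and *Fos* but not *Maff* or the other 6 of the 10 genes, 1 gene had an adjusted p under 0.05. It was none of those 3 and none of the 21 related genes fitted. That count was 0 with a lower limit of 100 on the sum, and between 0 and 1 when each library was left out. Adding a covariate for the largest library of each genotype raised the genes with an unadjusted p under 0.05 from 63 to 242. The remaining 95 alternative values stayed within the spread between libraries or, for counts, within 1.5 times the main count, although the small differences of *Fos*, *Atf3* and *Klf6* changed sign. No paired analysis was possible because the genotypes share a single pool number and the recovered libraries carry none. Reads per library were recovered only for weakly expressed genes, so no spread is given for *Jun*, *Junb*, *Ier2*, *Egr1* and *Dusp1*.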
